A study of Mus musculus with 12 samples.

Results

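The 32 genes described here act in the development of B lymphocytes. They were given as a list of symbols and found by an exact match to the symbol column of the count matrix, which gave 32 genes of 47069. The RNA came from tibia shafts, flushed of marrow, of 12 males that were 8 weeks old, with 4 mice in each of 3 groups. Jrt;Sost-ko mice carried Col1a1Jrt/+, a dominant splice-site variant of the main type I collagen gene that models severe osteogenesis imperfecta, together with Sost-/-, the loss of both alleles of the gene for sclerostin. Jrt;Sost-het mice carried Col1a1Jrt/+, and their heterozygous Sost genotype was taken from the study's text because the labels give only the collagen allele. WT mice were bred in a parallel colony, and in comparisons with WT the effects of colony and of genotype cannot be told apart. All mice were of mixed FVB/C57BL6 background, and the line with both mutant alleles on 1 chromosome goes back to a single recombinant mouse.

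B lymphocytes arise in the bone marrow from progenitors that first express terminal transferase and the Rag recombinase, join the segments of the heavy chain gene, and test the new chain by pairing it with a surrogate light chain. Cells that pass rearrange a light chain, carry IgM and then IgD on the surface, and leave the marrow as naive cells that express receptors such as Cr2 and Fcer2a. Interleukin 7 and stromal cells of the bone sustain the early stages, and loss of Sost has been reported to affect marrow B cells. In RNA from a whole tissue, fewer cells of a type and less RNA per cell cannot be told apart.

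Depth was 24366061 to 44418863 reads on genes per library, and each member had between 100 (Cr2) and 32190 (Ighm) counts in a library. Values per mouse are CPM, counts scaled to the total of each library with TMM factors over the 12 libraries. Sost lay between 0.328 and 1.28 CPM in Jrt;Sost-ko mice and between 27.1 and 72.4 CPM in the 8 other mice. The defining B cell markers Cd79a, Cd79b, Ms4a1, Pax5 and Ebf1, all members, were present in every mouse, from 48.7 CPM (Ms4a1) upward. The 12 osteoblast and osteocyte markers summed to 23380 to 70834 CPM, and the flushed shafts still held 19689 to 35293 CPM of 17 neutrophil genes. Skeletal muscle RNA ranged from 36.5 to 34124 CPM over 16 genes, and WT mice 3 and 4 stood apart through epidermal RNA, up to 691 CPM over 10 genes against at most 14.5 CPM in Jrt mice. The part of these admixtures in the results below was not tested, other than by leaving out WT mice 3 and 4 and by scaling without the muscle, erythroid, neutrophil and epidermis genes.

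The 250 bases upstream of the RefSeq start of 4 members are shown, 3 of the earliest stage and 1 of the mature stage. They are examples that hold a match, and not all genes whose levels set the mice apart below did. Capitals mark matches, on either strand, to 3 motifs of B lineage factors, the E-boxes CAGGTG and CAGCTG bound by E2A (the product of Tcf3) and the Ebf1 core CCCNNGGG. Igll1 (chr16:16863986-16864235, GRCm38.p6, minus strand) and Vpreb1 (chr16:16869256-16869505, minus strand) encode both parts of the surrogate light chain and lie side by side, Rag1 (chr2:101649533-101649782, minus strand) encodes the recombinase, and Cr2 (chr1:195176720-195176969, minus strand) encodes complement receptor CD21.
Igll1: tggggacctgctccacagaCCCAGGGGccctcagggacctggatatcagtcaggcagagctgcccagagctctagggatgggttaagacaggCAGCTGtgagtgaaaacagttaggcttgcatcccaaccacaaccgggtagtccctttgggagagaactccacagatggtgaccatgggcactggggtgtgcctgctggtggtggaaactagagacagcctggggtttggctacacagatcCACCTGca
Vpreb1: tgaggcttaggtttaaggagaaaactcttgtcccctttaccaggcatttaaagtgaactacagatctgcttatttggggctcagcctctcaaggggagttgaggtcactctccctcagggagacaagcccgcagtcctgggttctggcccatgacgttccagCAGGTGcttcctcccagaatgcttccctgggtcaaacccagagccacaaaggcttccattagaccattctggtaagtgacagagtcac
Rag1: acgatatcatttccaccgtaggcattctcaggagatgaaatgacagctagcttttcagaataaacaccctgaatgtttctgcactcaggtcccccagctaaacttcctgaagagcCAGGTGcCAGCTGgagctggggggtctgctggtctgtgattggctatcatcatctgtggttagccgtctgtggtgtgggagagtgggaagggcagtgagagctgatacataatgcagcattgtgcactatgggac
Cr2: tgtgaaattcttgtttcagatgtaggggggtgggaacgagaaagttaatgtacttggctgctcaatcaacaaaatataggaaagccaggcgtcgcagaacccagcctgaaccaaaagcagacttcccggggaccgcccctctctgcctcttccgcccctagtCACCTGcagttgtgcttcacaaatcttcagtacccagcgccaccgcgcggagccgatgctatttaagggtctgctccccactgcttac
All 4 windows held a CAGGTG E-box, which in Igll1 and Cr2 reads CACCTG on the printed strand. The window of Dntt, the early gene not shown, held no match to any motif searched. In Igll1 its first base was at -8 from the start, and in Vpreb1 and Cr2 at -88. Rag1 carried CAGGTG at -135 and CAGCTG at -128, and Igll1 also held CAGCTG at -158 and the Ebf1 core at -231. RefSeq windows were found for 25 of the 32 members, 28 windows in all, and Blk, Cd79b, Ighd, Ighm, Igkc, Ms4a1 and Mzb1 had no entry. CAGGTG occurred in 39.3% of the 28 windows (11) and in 17.2% of the 32817 windows of all genes. CAGCTG occurred in 10.7% of member windows and 13.0% of all, and CCCNNGGG in 17.9% and 11.8%. The octamer ATGCAAAT, the site of Oct factors that recruit Pou2af1, occurred in 7.14% against 1.60%, in Vpreb3 and Blnk, and the PU.1 and Spib core GAGGAAGT in 7.14% against 2.44%, in Cd72 and Cd37. A match describes these letters only.

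Each gene was read per length of its exons so that levels could be compared between genes. Over the 12 mice the immunoglobulin constant genes stood highest, Igkc at 420.0 CPM per kb (ENSMUSG00000076609, chromosome 6, 70726435 to 70726966) and Ighm at 394 CPM per kb (ENSMUSG00000076617, chromosome 12, 113418558 to 113422730). Cd79a and Cd79b, the signalling chains of the receptor, followed at 102 and 84.9 CPM per kb. The lowest were Bank1 at 2.66, Rag2 at 1.89 and Cr2 at 0.614 CPM per kb. In the plot of levels per length the 3 group means of a gene lie close together beside these differences between genes. Annotation limits some of these values, since the strand setting of the counting is not given in the sources used here. Of the exon bases of Mzb1, 57.2% are shared with a gene on the same strand, and 41.6% of those of Cd72 with Tesk1 on the opposite strand. Vpreb1 shares 97 of its 1252 windows of 100 bases (7.75%) with the close copy Vpreb2, which had 1.35 to 4.02 CPM.

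**Figure D1:**
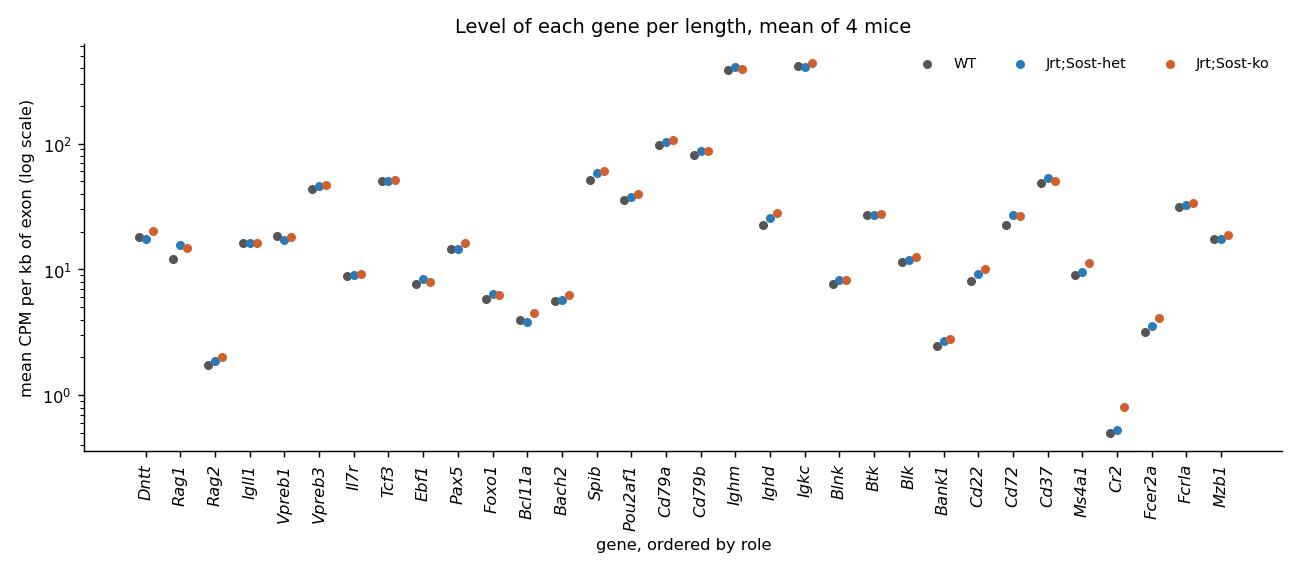
Mean CPM per kb of exon (log scale) of the 32 genes, ordered by role, with 1 point per group for the mean of 4 mice. Igkc (420.0 CPM per kb over all mice) and Ighm (394) lie at the top and Cr2 (0.614) at the bottom in all 3 groups.

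The effect of Sost loss was read within the mice that carry the Jrt allele, as Jrt;Sost-ko over Jrt;Sost-het, and this is called the comparison within Jrt mice. No member had an adjusted p under 0.05 in edgeR (0 of 32, smallest 0.901), where 0.00597% of the 16739 genes tested passed, which is Sost alone. DESeq2 called none of the 32 either, and 7 genes in all. Bcl11a and Ms4a1 had an unadjusted p under 0.05, 2 of 32 (6.25%) against 5.02% of all genes. In 1 member, Bcl11a, the groups did not overlap (3.12%), as they did not in 3.05% of all genes. The log2 fold change was above 0 in 26 of 32 members, against 50.4% of all genes, with a median of 0.07 over the members and 0.0013 over all genes tested. That count rested on single mice, being 12 without Jrt;Sost-het mouse 2, 15 without Jrt;Sost-ko mouse 3 and 14 without Jrt;Sost-ko mouse 4. The 95% interval of the log2 fold change lay within 1 of 0 for 31 members and within 0.5 for 21, and the exception for the wider limit was Cr2.

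Bcl11a, a zinc finger factor needed at the start of the B lineage (ENSMUSG00000000861, chromosome 11, 24078056 to 24174123), had 54.6, 46.1, 49.4 and 51.7 CPM in Jrt;Sost-het mice 1 to 4 and 56.6, 59.3, 58.0 and 63.5 CPM in Jrt;Sost-ko mice. Every Jrt;Sost-ko mouse lay above every Jrt;Sost-het mouse, with a log2 fold change of 0.24 (standard error 0.0644, edgeR p = 0.00499, adjusted p = 0.901; exact permutation p = 0.0286, the smallest that 4 mice against 4 allow). WT mice had 53.1, 57.9, 54.4 and 44.4 CPM and overlapped both groups. Ms4a1, which encodes the mature B cell antigen CD20 (ENSMUSG00000024673, chromosome 19, 11249675 to 11266241), had 70.9, 48.7, 58.8 and 58.4 CPM in Jrt;Sost-het mice, 65.8, 73.2, 69.4 and 70.9 CPM in Jrt;Sost-ko mice, and 53.6, 66.9, 55.5 and 49.3 CPM in WT mice. The Jrt;Sost-ko mice were tightly grouped and overlapped the other groups through Jrt;Sost-het mouse 1 and WT mouse 2. Its log2 fold change was 0.24 (standard error 0.102, edgeR p = 0.0424, adjusted p = 0.901; exact permutation p = 0.0857).

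The 3 genes of recombination varied more between mice than between groups. Dntt, terminal transferase, which adds bases at the joints of gene segments, had 39.8, 31.4, 46.4 and 43.5 CPM in Jrt;Sost-het mice 1 to 4, 39.3, 35.5, 53.0 and 56.8 CPM in Jrt;Sost-ko mice, and 36.8, 41.8, 43.0 and 43.8 CPM in WT mice. Jrt;Sost-ko mice 3 and 4 were the highest of all 12 and mouse 2 was among the lowest, so that the groups overlapped (log2 fold change 0.20 against Jrt;Sost-het, standard error 0.171, adjusted p = 0.904 from edgeR). Rag1, the cutting subunit of the recombinase, had 152, 91.2, 71.4 and 95.6 CPM in Jrt;Sost-het mice, 63.3, 88.5, 145 and 92.3 CPM in Jrt;Sost-ko mice, and 79.3, 73.7, 73.0 and 94.4 CPM in WT mice. Jrt;Sost-het mouse 1 and Jrt;Sost-ko mouse 3 stood far above the others, with the lowest value of all in Jrt;Sost-ko mouse 1 (log2 fold change -0.07, 95% interval -0.71 to 0.57). Rag2, its partner, ranged from 5.01 to 8.89 CPM over the 12 mice.

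Surrogate light chain genes encode the partner with which a new heavy chain is tested. Igll1 (lambda 5) had 34.8, 23.2, 37.4 and 45.0 CPM in Jrt;Sost-het mice, 28.5, 24.6, 43.4 and 43.6 CPM in Jrt;Sost-ko mice, and 33.9, 32.7, 35.2 and 37.9 CPM in WT mice. Vpreb1, its partner in the chain, had 19.1, 13.4, 22.9 and 26.3 CPM in Jrt;Sost-het mice, 17.9, 15.7, 27.1 and 26.1 CPM in Jrt;Sost-ko mice, and 21.2, 20.7, 22.6 and 24.1 CPM in WT mice. Both were low in Jrt;Sost-het mouse 2 and Jrt;Sost-ko mice 1 and 2 and high in Jrt;Sost-het mouse 4 and Jrt;Sost-ko mice 3 and 4, and neither differed between the groups beyond that spread (log2 fold changes 0.0015, standard error 0.239, and 0.09, standard error 0.238). Vpreb3, which binds immunoglobulin chains in precursor cells, lay between 31.1 and 48.1 CPM. Il7r, the receptor through which interleukin 7 sustains the early stages, lay between 33.5 and 51.8 CPM and had its highest value in Jrt;Sost-ko mouse 4.

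Of the 8 transcription factors 6 had a log2 fold change above 0 in the comparison within Jrt mice, and besides Bcl11a none had an unadjusted p under 0.05. Tcf3, Ebf1 and Pax5, which act in that order to commit cells to the lineage, had means of 204 ± 20.1, 82.0 ± 9.23 and 129 ± 21.3 CPM in Jrt;Sost-het mice and 207 ± 27.6, 77.1 ± 11.5 and 144 ± 25.4 CPM in Jrt;Sost-ko mice (SD, n = 4). Ebf1 had the lowest log2 fold change of all members, -0.08 (standard error 0.118, edgeR adjusted p = 0.923). Foxo1, which drives Rag expression, ranged from 45.3 to 62.1 CPM over the 12 mice, Bach2, a repressor that holds back plasma cell fate, from 42.4 to 83.2 CPM, and Pou2af1, a coactivator of immunoglobulin genes, from 70.7 to 120 CPM.

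The chains of the B cell receptor showed the same overlap. Cd79a was at 159, 121, 149 and 170 CPM in Jrt;Sost-het mice, 136, 142, 175 and 174 CPM in Jrt;Sost-ko mice, and 137, 157, 140.4 and 129 CPM in WT mice. Ighm, the heavy chain of IgM, had means of 722 ± 96.4 CPM in WT, 767 ± 141 CPM in Jrt;Sost-het and 739 ± 71.7 CPM in Jrt;Sost-ko mice (SD, n = 4). Igkc, the kappa light chain, which plasma cells also express at high level, was highest in WT mouse 2 (323 CPM), Jrt;Sost-het mouse 3 (314 CPM) and Jrt;Sost-ko mouse 2 (304 CPM), against 160.2 to 257 CPM in the others. Those were also the 3 mice with the highest summed level of 13 plasma cell genes, 1085, 1226 and 1102 CPM, against 708 to 939.6 CPM elsewhere, and whether plasma cells carried these Igkc values was not tested. The signalling genes Blnk, Btk, Blk and Bank1, an adaptor, 2 kinases and a scaffold below the receptor, had a median log2 fold change of 0.06 in the comparison within Jrt mice, and none had an unadjusted p under 0.05 in any comparison.

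Other surface and receptor genes were read by their range over the 12 mice, with Cd72, an inhibitory co-receptor, at 68.3 to 116 CPM, Fcrla, an Fc receptor-like protein of the B lineage, at 46.0 to 69.7 CPM, Cd37 at 149.9 to 197 CPM and Cd79b at 103 to 149 CPM. Of the genes of mature B cells Cr2, Fcer2a and Ighd varied most between mice, and Ms4a1, at 48.7 to 73.2 CPM, varied less than Dntt, Rag1, Igll1 and Vpreb1. Cr2 had 4.06, 3.65, 5.07 and 4.57 CPM in Jrt;Sost-het mice, 9.46, 8.78, 3.41 and 4.46 CPM in Jrt;Sost-ko mice, and 3.54, 6.26, 3.77 and 2.77 CPM in WT mice. Jrt;Sost-ko mice 1 and 2 were the highest of the 12, whereas mouse 3 lay below every Jrt;Sost-het mouse. Its log2 fold change against Jrt;Sost-het was therefore the largest of the members and among the least certain, 0.59 (standard error 0.322, 95% interval -0.14 to 1.32, edgeR adjusted p = 0.901; exact permutation p = 0.343). Ighd, the heavy chain of IgD, had 43.6, 32.2, 61.4 and 56.3 CPM in Jrt;Sost-het mice, 72.2, 59.5, 37.0 and 43.4 CPM in Jrt;Sost-ko mice, and 41.7, 62.0, 40.4 and 28.6 CPM in WT mice. Again Jrt;Sost-ko mice 1 and 2 exceeded mice 3 and 4 (log2 fold change 0.14, standard error 0.250 against Jrt;Sost-het). Fcer2a, the low-affinity IgE receptor CD23, had 7.92, 6.76, 13.6 and 15.8 CPM in Jrt;Sost-het mice, 15.9, 16.2, 7.48 and 11.6 CPM in Jrt;Sost-ko mice, and 8.26, 16.2, 9.91 and 5.29 CPM in WT mice. It followed the same mice as Ighd and did not differ beyond their spread in the comparison within Jrt mice (log2 fold change 0.22, standard error 0.324). The highest over the lowest of the 12 mice was 3.42-fold for Cr2, 3.06-fold for Fcer2a, 2.52-fold for Ighd and 2.40-fold for Rag1, and it was smallest for the tetraspanin gene Cd37 (1.31-fold) and Tcf3 (1.32-fold).

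**Figure D2:**
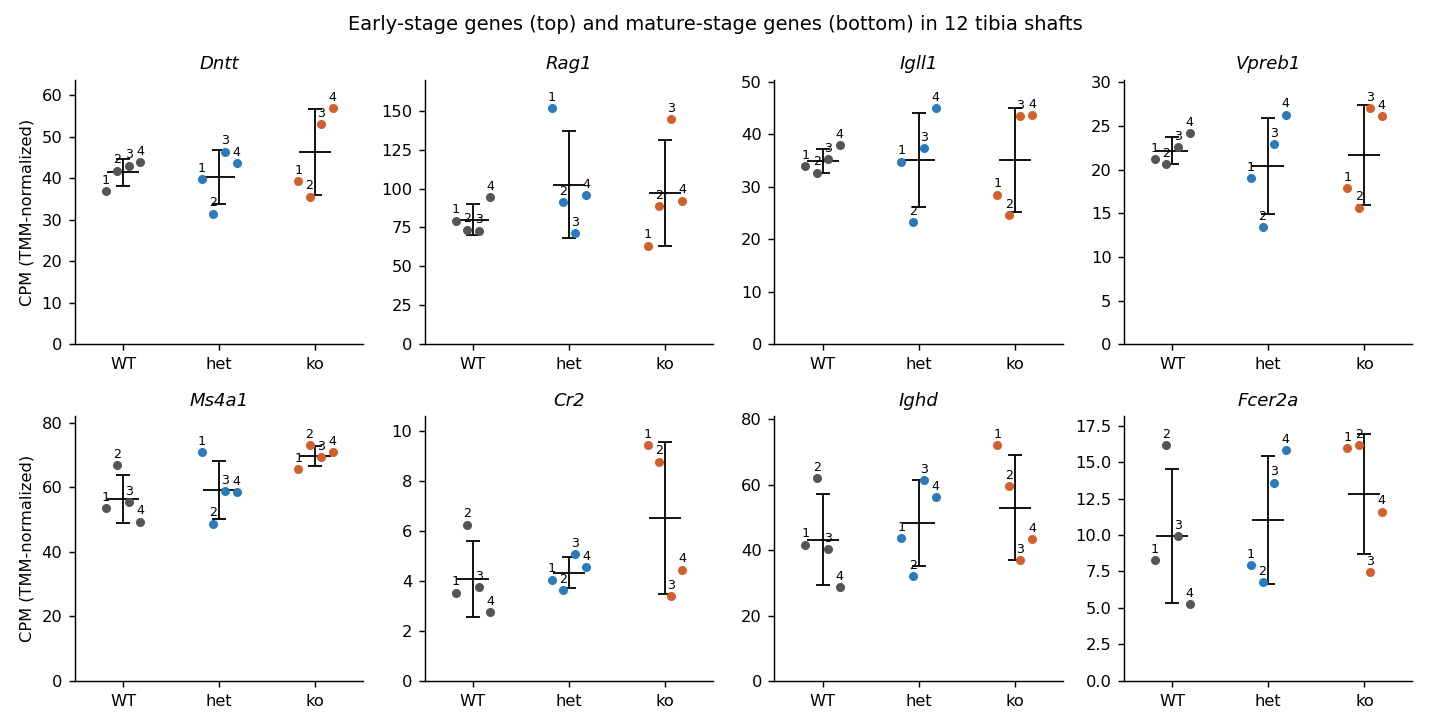
CPM of 4 early-stage genes (top row) and 4 mature-stage genes (bottom row) in each mouse, numbered 1 to 4, by group, with the mean and SD as bars (n = 4). Jrt;Sost-ko mice 3 and 4 lie above mice 1 and 2 in Dntt, Igll1 and Vpreb1 and below them in Cr2, Ighd and Fcer2a.

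The early genes named above (Dntt, Rag1, Igll1, Vpreb1) were set against the mature ones (Ms4a1, Cr2, Ighd) within each mouse. CPM was not scaled to gene length here (8112 exon bases for Cr2, 1199 for Vpreb1). Which of the 2 levels is higher depends on those lengths, and only the order of the mice can be read. The mean log2 CPM of the early genes exceeded that of the mature genes by 0.94, 0.78, 0.63 and 0.93 in Jrt;Sost-het mice 1 to 4 and by 0.93, 0.36, 0.96 and 1.48 in WT mice. In Jrt;Sost-ko mice this difference was -0.08, -0.02, 1.40 and 1.04. Mice 1 and 2 of that group had the lowest differences, the only 2 of the 12 with a mature mean log2 CPM above the early one. Mice 3 and 4 had the highest differences after WT mouse 4. By summed CPM, in contrast, the early genes exceeded the mature ones in every mouse. The lowest ratios were 1.01 and 1.16 in Jrt;Sost-ko mice 1 and 2, followed by 1.25 in WT mouse 2. The group means of the log2 difference, 0.82 ± 0.14 in Jrt;Sost-het, 0.58 ± 0.75 in Jrt;Sost-ko and 0.93 ± 0.46 in WT mice (SD, n = 4), lay closer together than the mice within the Jrt;Sost-ko group. The 17 T cell genes, which mark other lymphocytes of blood and lymphoid tissue, summed to 151, 103, 87.5 and 97.9 CPM in Jrt;Sost-ko mice 1 to 4, to 95.8, 88.6, 119.8 and 95.9 CPM in Jrt;Sost-het mice, and to 83.9, 122, 84.3 and 88.9 CPM in WT mice. They were highest in mice with high Ighd and Cr2 (Jrt;Sost-ko mouse 1, WT mouse 2, Jrt;Sost-het mouse 3), and the part of blood or of lymphoid cells in the stage difference was not tested.

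**Figure D3:**
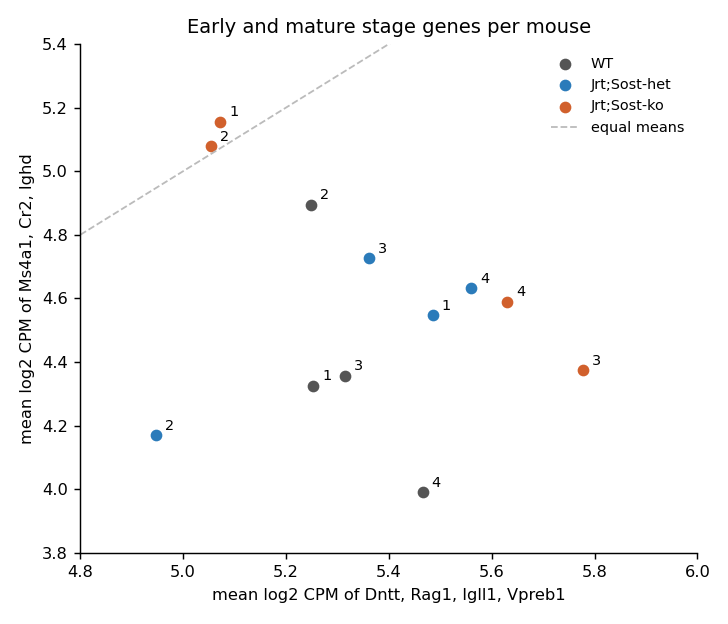
Mean log2 CPM of the mature genes against that of the early genes, 1 numbered point per mouse coloured by group, with a dashed line where both are equal. On which side of the line a mouse falls depends on the lengths of the genes. Jrt;Sost-ko mice 1 and 2 lie above the line, and mice 3 and 4 of the same group at the far right with early-minus-mature differences of 1.40 and 1.04.

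Most members moved together from mouse to mouse. Jrt;Sost-ko mice 3 and 4 were the highest of the 12 for 9 and 10 members, among them Dntt, Vpreb1, Vpreb3, Cd79a and Tcf3, and were above the 12-mouse mean in 27 and 29 of 32. Jrt;Sost-het mouse 2 was the lowest for 14 members and WT mouse 4 for 11. Summed over the members, the level lay between 2527 and 3425 CPM, with means of 2924 ± 294 CPM in WT, 3098 ± 398 CPM in Jrt;Sost-het and 3160 ± 306 CPM in Jrt;Sost-ko mice (SD, n = 4). The 14 pan-leukocyte genes summed to 3973 to 6362, 4637 to 5743 and 4333 to 5561 CPM in the same order, and these ranges overlapped too.

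**Figure D4:**
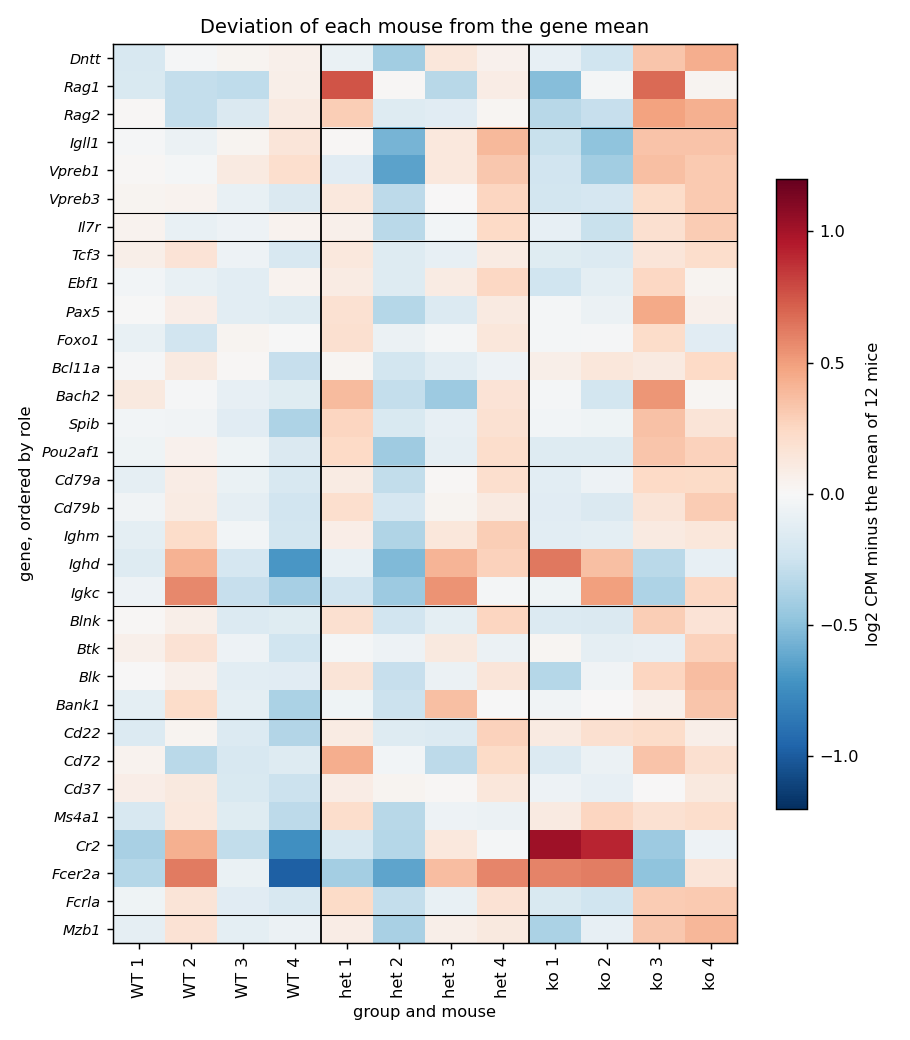
Deviation of log2 CPM of each mouse from the mean of 12 mice, genes in rows by role and mice in columns by group, red above and blue below the mean. Columns of Jrt;Sost-ko mice 3 and 4 are mostly red and that of Jrt;Sost-het mouse 2 mostly blue. Cr2, Fcer2a and Ighd run against this in Jrt;Sost-ko mouse 3. In Jrt;Sost-ko mouse 4 Cr2 (-0.059) and Ighd (-0.097) lie just below the mean and Fcer2a (0.14) above it.

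Jrt;Sost-het mice were compared with WT across colonies, and the effects of the collagen allele, of the single lost Sost allele and of the colony cannot be told apart here. No member passed in edgeR or DESeq2 (0 of 32 in each, and 0.0% of 16775 genes in edgeR), none had an unadjusted p under 0.05 (2.14% of all genes did), and the groups overlapped for all 32 (1.5% of all genes had no overlap). The log2 fold change was above 0 in 26 members, against 51.3% of all genes, with a median of 0.08 (0.0036 over all genes). It was above 0 in 18 without Jrt;Sost-het mouse 4, and in 16 without WT mice 3 and 4, the libraries with epidermal RNA. Rag1 had the highest value, 0.35 (standard error 0.213, edgeR p = 0.134; exact permutation p = 0.343), and Vpreb1 the lowest, -0.12 (standard error 0.187). For the mature genes the values were 0.07 for Ms4a1, 0.09 for Cr2, 0.16 for Ighd and 0.16 for Fcer2a, and without WT mice 3 and 4 all 4 were below 0 (-0.017, -0.16, -0.092 and -0.14).

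Jrt;Sost-ko mice, which lack both Sost alleles and carry the Jrt allele, were also set against WT; the control mice are those of the comparison before, so the 2 are not independent. No member passed in either tool (0 of 32, where 0.00583% of 17155 genes, Sost alone, passed in edgeR). Cd22, Ms4a1 and Spib had an unadjusted p under 0.05, 3 of 32 (9.38%) against 3.89% of all genes, and the groups did not overlap in 1 member, Cd22 (3.12%), against 2.36% of all genes. The log2 fold change was above 0 in 31 of 32 members, all but Vpreb1, against 49.1% of all genes, with a median of 0.14 (-0.0030 over all genes). Without Jrt;Sost-ko mouse 4 it was above 0 in 25, and without WT mice 3 and 4 in 27, with Cd22 alone at an unadjusted p under 0.05.

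Cd22, an inhibitory co-receptor of the B cell (ENSMUSG00000030577, chromosome 7, 30865402 to 30880342), had 49.3, 52.5, 53.2 and 48.3 CPM in Jrt;Sost-ko mice, 41.0, 46.9, 41.0 and 35.8 CPM in WT mice, and 49.0, 41.2, 40.8 and 55.4 CPM in Jrt;Sost-het mice. Each Jrt;Sost-ko mouse was above each WT mouse, and Jrt;Sost-het mice spanned both ranges (log2 fold change against WT 0.31, standard error 0.0840, edgeR p = 0.00585, adjusted p = 0.9996; exact permutation p = 0.0286). Ms4a1 had a log2 fold change of 0.31 against WT (standard error 0.0907, edgeR p = 0.00815, adjusted p = 0.9996; exact permutation p = 0.0571). Spib, an Ets factor of mature and plasmacytoid cells, had 157, 155, 206 and 179 CPM in Jrt;Sost-ko mice, 158, 156, 146 and 124 CPM in WT mice, and 192, 141, 150.4 and 183 CPM in Jrt;Sost-het mice. WT mice 1 and 2 overlapped the lower Jrt;Sost-ko mice (log2 fold change 0.26, standard error 0.111, edgeR p = 0.0457, adjusted p = 0.9996; exact permutation p = 0.143). Siglech and Ccr9, markers of plasmacytoid dendritic cells that remained of a list trimmed after levels were seen, summed to 14.8, 37.3, 14.5 and 10.6 CPM in WT mice 1 to 4, to 33.0, 16.6, 34.9 and 33.5 CPM in Jrt;Sost-het mice, and to 43.7, 24.1, 16.4 and 24.0 CPM in Jrt;Sost-ko mice. They were high in Jrt;Sost-ko mouse 1 and WT mouse 2, as were Ighd, Cr2 and Fcer2a. Jrt;Sost-het mice 1, 3 and 4 were high for them too, though mouse 1 had only 4.06 CPM of Cr2 and 7.92 CPM of Fcer2a. Jrt;Sost-ko mouse 2, with 8.78 CPM of Cr2 and 16.2 CPM of Fcer2a, was not among the mice high for them. The part of plasmacytoid dendritic cells in the levels of Ighd, Cr2, Fcer2a and Spib was not tested. Cr2 again had the largest difference (0.68, 95% interval -0.19 to 1.56).

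**Figure D5:**
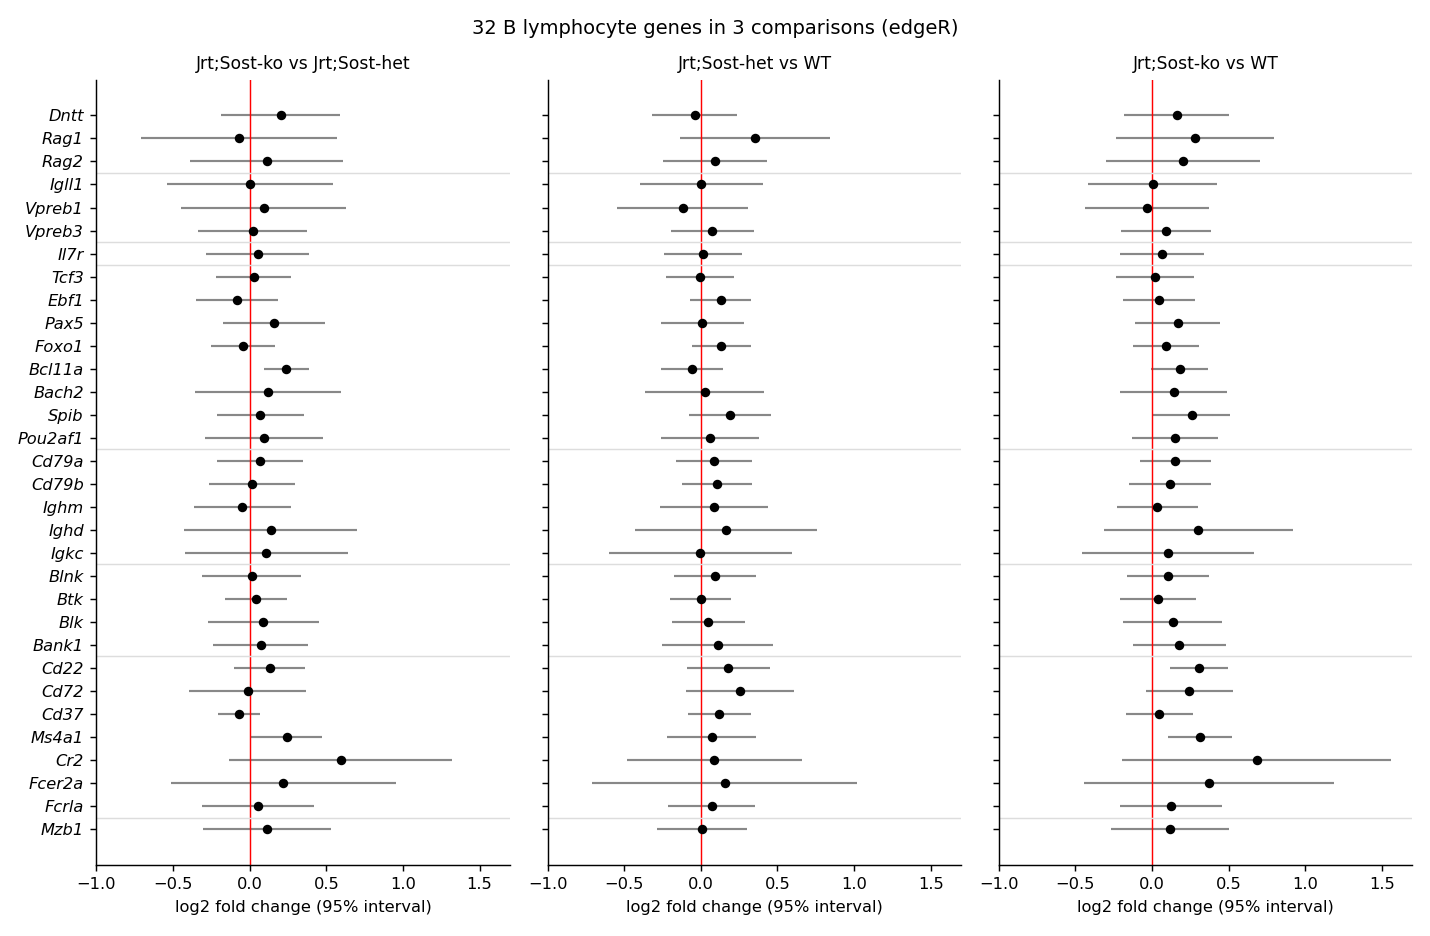
Log2 fold change (point) with its 95% interval (line) from edgeR for the 32 genes, ordered by role from recombination to secretion, in 3 comparisons of 4 mice with 4, with 0 in red. Intervals leave out 0 for Bcl11a and Ms4a1 on the left, for none in the middle, and for Cd22, Ms4a1 and Spib on the right.

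Other genes of the lineage that were not among the 32 were read from a list of 46, such as those of the Ikaros factors. None passed in edgeR in any comparison (0 of 46). In the comparison within Jrt mice 35 of 46 were above 0, against 50.4% of all genes, with a median of 0.10. An unadjusted p under 0.05 was found in 6 of the 46, 5 with a higher and 1 with a lower value, against 5.02% of all genes. Pou2f2 (Oct-2), which binds the octamer, had 66.5, 63.4, 46.3 and 44.2 CPM in Jrt;Sost-ko mice and 38.7 to 43.4 CPM in Jrt;Sost-het mice without overlap (log2 fold change 0.43, standard error 0.138, edgeR p = 0.0122, adjusted p = 0.901; exact permutation p = 0.0286), and its high mice were again Jrt;Sost-ko mice 1 and 2. Ikzf1 (Ikaros) and Ccr7, a homing receptor of mature lymphocytes, had log2 fold changes of 0.17 and 0.31 without overlap of the groups (edgeR p = 0.0131 and 0.0217, adjusted p = 0.901 for both, exact permutation p = 0.0286 for both). Pou2f2, Ikzf1 and Ccr7 are named because they had the smallest edgeR p of the 46. Of all genes 3.05% had no overlap, and how many of the 46 had none was not counted. In Jrt;Sost-ko against WT mice 42 of 46 were above 0 (49.1% of all genes), with a median of 0.13 and 7 at an unadjusted p under 0.05 (3.89% of all genes). In Jrt;Sost-het against WT mice 33 were above 0 (51.3% of all genes), with a median of 0.06 and 2 at an unadjusted p under 0.05 (2.14% of all genes).

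Ikzf3, which encodes Aiolos, an Ikaros factor of the later B cell stages, had 65.8, 64.4, 72.5 and 55.0 CPM in Jrt;Sost-ko mice, 62.9, 47.3, 43.9 and 54.2 CPM in Jrt;Sost-het mice, and 43.0, 49.3, 43.8 and 43.4 CPM in WT mice. All Jrt;Sost-ko mice were above all WT mice, by 0.53 on the log2 scale (standard error 0.0937, edgeR p = 0.000418, adjusted p = 0.9996; exact permutation p = 0.0286), and DESeq2 gave an adjusted p of 0.00285. Over 14 alternatives the adjusted p ranged from 0.00285 to 0.99998 and was under 0.05 in DESeq2 alone, with log2 fold changes of 0.46 to 0.59. Ikzf3 lies on chromosome 11 from 98464902 to 98546031, between Col1a1 (94936224 to 94953042) and Sost (101962458 to 101967015), and so does Ccr7 (99144196 to 99155077). In this interval the selected alleles came from FVB and C57BL6 founders, and an effect of Sost loss and one of a linked strain allele cannot be told apart. Against WT mice, effects of the Jrt allele and of the colony cannot be told apart from these either.

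Plasma cells, the end of the lineage, were read from 13 genes. In the comparison within Jrt mice 5 of the 12 tested were above 0 (median -0.05, 50.4% of all genes above 0), with 2 at an unadjusted p under 0.05 (5.02% of all genes), the IgG constant genes Ighg2b (log2 fold change 1.19, standard error 0.369, edgeR p = 0.0105) and Ighg2c (1.30, standard error 0.408, edgeR p = 0.0113), both with an adjusted p of 0.901, an exact permutation p of 0.0571 and overlapping groups. Ighg2b had 66.5, 154, 54.8 and 159 CPM in Jrt;Sost-ko mice and 36.0, 65.5, 51.6 and 37.2 CPM in Jrt;Sost-het mice, with mice 2 and 4 of the first group far above the rest. Mzb1, a chaperone of antibody secretion and the last member, lay between 19.7 and 24.2 CPM in WT, 16.3 and 23.2 CPM in Jrt;Sost-het and 16.4 and 28.2 CPM in Jrt;Sost-ko mice.

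Signals of the niche that sustain B cell progenitors were read from 12 genes. In the comparison within Jrt mice 5 were above 0 (median -0.07, 50.4% of all genes above 0). An unadjusted p under 0.05 was found in 3 of the 12, 1 with a higher and 2 with a lower value, against 5.02% of all genes. The growth factor gene Flt3l had a log2 fold change of -0.22 without overlap of the groups (standard error 0.0851, edgeR p = 0.0291; exact permutation p = 0.0286), though all of its exon bases are shared with other annotated models, Rpl13a among them. The adhesion genes Vcam1 and Fn1 had log2 fold changes of 0.34 and -0.64 (edgeR p = 0.0316 and 0.0323; exact permutation p = 0.0571 and 0.0857), and all 3 genes an adjusted p of 0.901. None of the 17 T cell genes had an unadjusted p under 0.05 in any comparison, while 15, 12 and 16 of them were above 0 in the 3 comparisons, in the order in which they were described, against 50.4%, 51.3% and 49.1% of all genes. Their median log2 fold changes were 0.20, 0.04 and 0.23, beside 0.07, 0.08 and 0.14 for the 32 B lymphocyte genes, and the difference between the lists was not tested.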

How the data were processed

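RNA-seq of 12 tibia shafts (4 mice per group, 1 library each) was analysed. The authors aligned paired reads to GRCm38 with STAR, and the submitters' processing notes also name bcl2fastq 2.20, Cufflinks, Cuffdiff and DESeq. The counting tool, its strand setting and the annotation release are not given in the sources used here. The deposited count matrix holds raw counts per gene without normalization. The authors' comparison tables, which hold fold changes and p-values, and the files of single mice were not used.

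Counts of each pair of groups (8 mice) were fitted in R 4.3.3 with edgeR 4.0.16 (filterByExpr, TMM, glmQLFit and glmQLFTest with defaults), without covariates, and p-values were adjusted by Benjamini-Hochberg over all genes tested, with a threshold of 0.05. Single genes were also compared on log2 CPM (prior count 2) by exact two-sided permutation tests over 70 arrangements. DESeq2 1.42.0 and other settings were alternatives. The fit was tested on simulated counts. Gene models came from GENCODE M21 (46574 of 47069 identifiers found, 98.9%) and promoters from RefSeq.

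The members, the other lists and the tests were chosen with earlier results of these data known, and the motifs after the files were seen. The text names all 32 members, Sost, and of each other list counts, medians and at most the 3 genes with the smallest p in a comparison. A list of 2 plasmacytoid dendritic cell genes, trimmed after levels were seen, is given by its summed level only. Mice were numbered in accession order, and the numbers pair no mice. The labels do not tie mice to litters or batches.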

Additional observations from a re-analysis of the deposited data

Results flagged for a closer look

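In 2 of the 102 groups of 4 mice examined (32 members, their sum and the early-minus-mature difference), the gap from the most extreme mouse to its neighbour, as a share of the range of the group, exceeded the Dixon critical value of 0.829, where chance flags about 5% of groups. Both were Mzb1, which shares exon bases with a neighbouring gene. In Jrt;Sost-het mice the share was 0.879, with mouse 2 lowest at 16.3 CPM against 22.4 to 23.2 CPM, and in WT mice it was 0.860, with mouse 2 highest at 24.2 CPM against 19.7 to 20.4 CPM. Jrt;Sost-het mouse 2 was also the lowest for 14 members.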

How the results depend on the processing

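The count of members with an adjusted p under 0.05 stayed at 0 in all 3 comparisons under every alternative run, with smallest adjusted p of 0.50002 within Jrt mice, 0.241 for Jrt;Sost-het against WT and 0.388 for Jrt;Sost-ko against WT. The alternatives were DESeq2 size factors, DESeq2, no filter, all 12 mice in 1 fit, scaling without muscle, erythroid, neutrophil and epidermis genes, each mouse left out, and WT mice 3 and 4 left out together. Of all genes, DESeq2 called 7, 4 and 18 in the same order, against 1, 0 and 1, and 2 were called without a filter in Jrt;Sost-ko against WT. Without 1 mouse the calls ranged from 0 to 3 within Jrt mice and from 0 to 2 in Jrt;Sost-ko against WT. The median of the members ranged from -0.02 to 0.13, from -0.0081 to 0.16 and from 0.05 to 0.20.

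The sign of 23, 22 and 11 members changed under at least 1 alternative. With 1 mouse left out, values within Jrt mice ranged from -0.067 to 0.24 for Vpreb1, -0.15 to 0.14 for Igll1, -0.053 to 0.27 for Ighd, -0.33 to 0.18 for Rag1 and -0.022 to 0.14 for Spib. In Jrt;Sost-het against WT they ranged from -0.27 to 0.037 for Vpreb1, -0.14 to 0.16 for Igll1, -0.11 to 0.063 for Dntt, -0.027 to 0.16 for Ms4a1, -0.067 to 0.37 for Cr2 and -0.071 to 0.49 for Fcer2a, and for Jrt;Sost-ko against WT from -0.16 to 0.10 for Vpreb1, -0.12 to 0.14 for Igll1 and -0.058 to 0.11 for Ebf1. Igll1 turned to -0.00020 with DESeq2 size factors and -0.0018 with all 12 mice within Jrt mice, and to -0.0059 without a filter in Jrt;Sost-ko against WT. Without WT mice 3 and 4, Jrt;Sost-het against WT gave -0.092 for Ighd, 0.045 for Dntt, -0.017 for Ms4a1, -0.16 for Cr2 and -0.14 for Fcer2a, and Jrt;Sost-ko against WT gave 0.051 for Vpreb1. The cause was not tested. With 4 mice a group the 95% interval of the log2 fold change of Cr2 within Jrt mice ran from -0.14 to 1.32. A rise of Cr2 up to that size therefore lay within the error. For the other 31 members the interval lay within 1 of 0. No paired analysis was possible because the mouse numbers follow accession order and pair no mice.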

Other observations

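The V gene segments of the immunoglobulin loci, summed after the files had been seen, gave a further view of the B lineage. Heavy chain V segments (Ighv) summed to 94.2 ± 24.4 CPM in WT, 104 ± 15.7 CPM in Jrt;Sost-het and 110.4 ± 31.6 CPM in Jrt;Sost-ko mice (SD, n = 4), and kappa V segments (Igkv) to 196 ± 69.2, 201 ± 67.5 and 212 ± 51.8 CPM in the same order. The ranges of the groups overlapped. In each mouse the most abundant heavy chain segment took between 4.01% and 14.9% of the Ighv sum.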
